A study of Mus musculus with 12 samples.

Results

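Genes of phosphate handling and mineralization were followed in mesenchymal cells of the mouse mandibular condyle: Alpl, Phospho1, Smpd3, Enpp1, Abcc6, Nt5e, Slc20a1, Slc20a2, Mgp and Phex. They were chosen by name, with earlier results of these data known, and all 10 were found among the 22063 genes of the deposited table. Of the 10, 9 had enough counts to be tested, and Abcc6 did not. After 4 days of osteogenic induction in AdV-EGFP cells, Alpl, Smpd3, Mgp and Phex rose and Enpp1, Slc20a1 and Slc20a2 fell. In the cells labelled as given Cre, Smpd3 and Mgp again rose and the same 3 genes again fell, whereas Phex fell and Alpl was not called. Between the viruses after induction, Alpl and Phex were lower and Phospho1 was higher in libraries labelled OI-AdV-CRE-EGFP.

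Mineral in bone and calcified cartilage is calcium phosphate, and it forms where free phosphate is plentiful and inorganic pyrophosphate, which blocks crystal growth, is scarce. Tissue-nonspecific alkaline phosphatase, the product of Alpl, frees phosphate outside the cell and destroys pyrophosphate, and it also splits the β-glycerophosphate of osteogenic medium. PHOSPHO1 frees phosphate inside matrix vesicles from phosphocholine and phosphoethanolamine, while SMPD3, a neutral sphingomyelinase, releases phosphocholine from membranes. ENPP1 makes pyrophosphate from extracellular ATP, ABCC6 is needed for ATP release from the liver, and NT5E (CD73) turns AMP into adenosine and phosphate. SLC20A1 and SLC20A2 (PiT-1 and PiT-2) carry sodium and phosphate into cells, MGP is a vitamin K-dependent inhibitor of calcification, and PHEX is an endopeptidase of osteoblasts and osteocytes whose loss causes X-linked hypophosphatemia.

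The 12 libraries, 3 in each of 4 groups, came from second-passage cells of newborn Plagl1 fl/fl mice, whose floxed allele Cre can recombine. Every culture was infected with adenovirus at a multiplicity of 100: AdV-EGFP and AdV-CRE-EGFP cells were taken on day 0. The OI-AdV-EGFP group and its OI-AdV-CRE-EGFP counterpart had 4 further days in osteogenic medium, which held dexamethasone at 100 nM, ascorbic acid at 50 μg/mL and β-glycerophosphate at 5 mM. The sources used here give no sort of infected cells, and nothing in the labels ties the 3 libraries of a group to different cultures or mice, so p-values measure only the spread between libraries, which may be technical. The 12 libraries hold no cells kept for those days in plain medium, so induction cannot be told apart from 4 more days in culture. Total counts per library ran from 15316989 to 18052040. Values are given as CPM, the counts divided by library size after scaling by the trimmed mean of M values, and a gene was called at an adjusted p under 0.05 in edgeR with a log2 fold change of at least 1 in either direction. The standard error of a log2 fold change is given as SE. For the interaction, the difference between the changes with induction in the 2 viruses, the adjusted p alone was used. All 7 mesenchymal markers checked, Prrx1 and Pdgfra among them, reached at least 1 CPM in every group. Of the 8 cartilage markers, 6 had means of at least 1 CPM in each day 0 group and 5 in each induced group. Sox9 was among these, with group means from 38.1 to 53.1 CPM. Col9a1 and Matn1 had means under 1 CPM in all groups and Col10a1 in both induced groups.

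Plagl1, the targeted gene, encodes a zinc finger transcription factor. Its RNA stood at 386, 426 and 390 CPM in AdV-EGFP and at 581, 593 and 591 CPM in libraries labelled AdV-CRE-EGFP. After induction, the values were 402, 393 and 380 CPM in OI-AdV-EGFP and 382, 404 and 368 CPM in libraries labelled OI-AdV-CRE-EGFP. Plagl1 RNA was thus not lower with either label of Cre, and on day 0 every library labelled with Cre lay above every AdV-EGFP library. The table gives totals per gene, which do not show whether a floxed exon was lost, and the Cre groups are therefore called by their labels.

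Compared per length, as FPKM, which divides fragments by transcript length and library size, the members differed widely in level. The deposited FPKM was not always in a fixed proportion to the counts of a gene. In libraries labelled OI-AdV-CRE-EGFP, Alpl had 38 counts and 1.16 FPKM in replicate 1 but 42 counts and 0.993 FPKM in replicate 3, at similar total counts. Mgp led in all 4 groups, with a mean of 193 ± 17.7 FPKM (SD, n = 3) in AdV-EGFP and 898 ± 37.4 FPKM in OI-AdV-EGFP. On day 0 in AdV-EGFP it was followed by Slc20a1 (42.4 ± 1.40 FPKM), Slc20a2 (34.2 ± 0.202 FPKM), Enpp1 (9.18 ± 0.536 FPKM), Phospho1 (4.14 ± 0.274 FPKM) and Nt5e (2.28 ± 0.492 FPKM). Smpd3, Alpl and Phex came last among the tested members, with means between 0.727 and 0.974 FPKM, and neighbours among these 3 overlapped in their libraries. After induction, Smpd3 reached 12.6 ± 0.369 FPKM in OI-AdV-EGFP, a level that overlapped Slc20a2 (12.2 ± 1.77 FPKM), which in turn overlapped Slc20a1 (11.2 ± 0.578 FPKM). In libraries labelled OI-AdV-CRE-EGFP, Slc20a1 (18.8 ± 1.15 FPKM), Slc20a2 (14.1 ± 1.21 FPKM) and Smpd3 (11.2 ± 0.923 FPKM) ranked 2 to 4 without overlap among them, Smpd3 overlapped Phospho1 (9.82 ± 2.10 FPKM), and Phex was lowest of the 9 at 0.230 ± 0.0238 FPKM.

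**Figure D1:**
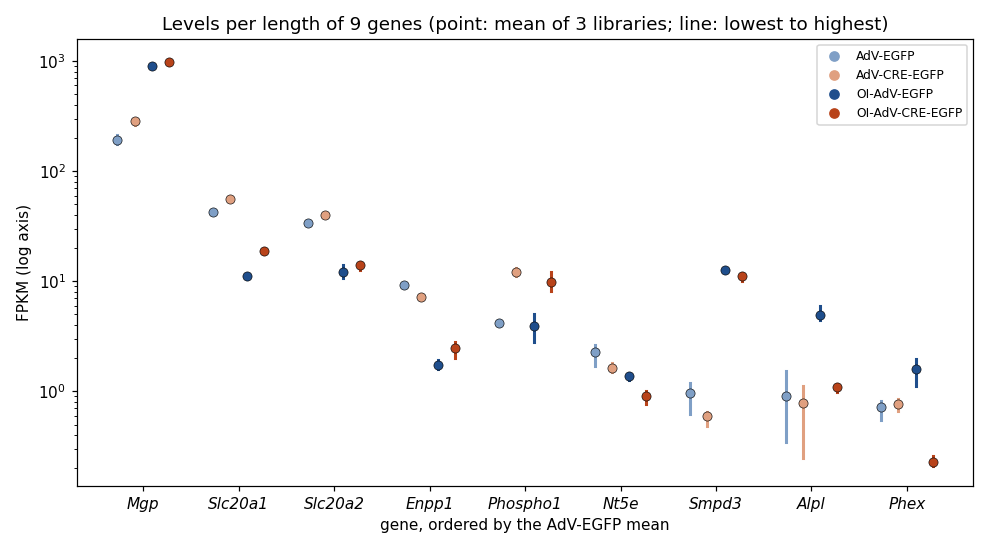
Level per length (FPKM, log axis) of the 9 tested genes in the 4 groups, with a point for the mean of 3 libraries and a line from the lowest to the highest. Mgp lies above all others in every group, and Phex in libraries labelled OI-AdV-CRE-EGFP, at 0.230 FPKM, is the lowest mean.

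The promoter windows of Alpl, Phospho1 and Phex are shown because these are the 3 members that were called between the viruses. RefSeq windows, 250 bases before to 50 after a start site on GRCm38.p6, were matched for 6 of the 10 members, and Alpl has 2 starts. The windows lie at chr4:137796335-137796634 (Alpl window 1, minus strand), chr4:137766426-137766725 (Alpl window 2, minus strand), chr11:95824250-95824549 (Phospho1, plus strand) and chrX:157415237-157415536 (Phex, minus strand). Capitals mark the single match found in the windows shown.
Alpl window 1: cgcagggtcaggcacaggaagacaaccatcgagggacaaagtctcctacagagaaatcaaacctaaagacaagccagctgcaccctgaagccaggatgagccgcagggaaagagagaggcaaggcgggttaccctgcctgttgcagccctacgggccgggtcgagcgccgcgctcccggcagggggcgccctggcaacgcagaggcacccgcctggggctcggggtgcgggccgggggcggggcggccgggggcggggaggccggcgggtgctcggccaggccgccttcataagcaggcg
Alpl window 2: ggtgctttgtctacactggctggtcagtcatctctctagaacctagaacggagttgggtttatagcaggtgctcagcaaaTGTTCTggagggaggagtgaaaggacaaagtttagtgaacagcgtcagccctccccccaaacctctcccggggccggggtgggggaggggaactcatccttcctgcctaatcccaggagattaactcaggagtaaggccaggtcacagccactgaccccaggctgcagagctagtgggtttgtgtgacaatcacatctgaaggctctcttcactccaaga
Phospho1: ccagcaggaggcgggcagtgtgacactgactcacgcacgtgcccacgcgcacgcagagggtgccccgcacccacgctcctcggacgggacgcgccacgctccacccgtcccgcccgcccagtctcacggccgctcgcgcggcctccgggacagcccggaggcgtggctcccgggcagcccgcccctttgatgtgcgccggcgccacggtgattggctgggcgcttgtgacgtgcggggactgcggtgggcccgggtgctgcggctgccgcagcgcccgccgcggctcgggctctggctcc
Phex: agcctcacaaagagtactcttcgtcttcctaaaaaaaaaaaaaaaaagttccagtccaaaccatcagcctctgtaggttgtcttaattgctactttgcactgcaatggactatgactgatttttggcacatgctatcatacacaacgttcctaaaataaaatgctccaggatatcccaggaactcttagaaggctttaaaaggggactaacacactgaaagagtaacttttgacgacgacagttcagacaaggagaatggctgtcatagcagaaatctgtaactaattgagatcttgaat
Each window was searched on both strands for the RUNX motif TGTGGT, for TGTTCT, a core of the glucocorticoid receptor motif, and for the PLAGL1 motif GGGGCCCC. Alpl window 2 held TGTTCT at bases 81 to 86, beginning 170 bases before the start. The other 3 windows shown held none of these letters. Among the windows not shown, Slc20a1 window 1 held 1 RUNX motif and 1 PLAGL1 motif, and Slc20a1 window 2 held TGTTCT 1 time. The Enpp1 window held 1 RUNX motif, and the Nt5e window held none of the motifs. Over all 32851 mouse windows, 16.8% held the RUNX motif, 19% the glucocorticoid receptor motif and 1.08% the PLAGL1 motif. In base composition the windows ran from 38.7% G and C for Phex through 54.3% and 70% for Alpl to 77% for Phospho1.

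With induction in AdV-EGFP, 7 of the 9 tested members were called, 4 higher and 3 lower, against 25.9% of all 13670 tested genes (15.1% higher and 10.8% lower). The median log2 fold change of the 9 was −0.22 and that of all tested genes 0.047. With induction in libraries labelled AdV-CRE-EGFP, 6 of 9 were called, 2 higher and 4 lower, against 20.7% of all tested genes (12% higher and 8.62% lower), with medians of −0.88 and 0.017. Scaled to Actb, 2 of 9 were called with Cre, Smpd3 and Mgp, and none of the 4 that fell (Enpp1, Slc20a1, Slc20a2 and Phex) was called, while the calls among all genes became 4600 higher and 436 lower. The 3 libraries of each group lay apart without overlap for 8 of the 9 members in AdV-EGFP (4 higher, 4 lower) and for 7 of 9 with Cre (2 higher, 5 lower). Such separation was common, at 77.1% of all tested genes in AdV-EGFP (40.1% higher, 37% lower) and 73.4% with Cre (37% higher, 36.5% lower). These 2 comparisons share no library. They had 2 members higher in both (Smpd3 and Mgp), 3 lower in both (Enpp1, Slc20a1 and Slc20a2) and 1, Phex, called in opposite directions.

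Fewer members were called between the viruses. After induction 3 of 9 were called, Phospho1 higher and Alpl and Phex lower in libraries labelled OI-AdV-CRE-EGFP, against 5.07% of all tested genes (2.46% higher and 2.61% lower). Before induction 1 of 9 was called, Phospho1, which was higher, against 3.16% of all tested genes (2.6% higher and 0.556% lower). The interaction was called for 5 of 9, with 3 lower (Alpl, Phex and Mgp) and 2 higher (Enpp1 and Slc20a1), against 22.8% of all tested genes (12.1% lower and 10.7% higher). The libraries of the 2 viruses lay apart for 8 of 9 members after induction (4 higher, 4 lower), against 50.4% of all tested genes (24.3% higher, 26.1% lower), and for 5 of 9 before it (4 higher, 1 lower), against 40.7% (21.2% higher, 19.5% lower). The comparisons between viruses share libraries with those of induction, and their values are given side by side. Leaving out replicate 3 of both day 0 groups, a setting chosen after seeing the data because these libraries had few Alpl and Ibsp counts, gave 7, 6, 3 and 1 called members and 6 for the interaction.

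**Figure D2:**
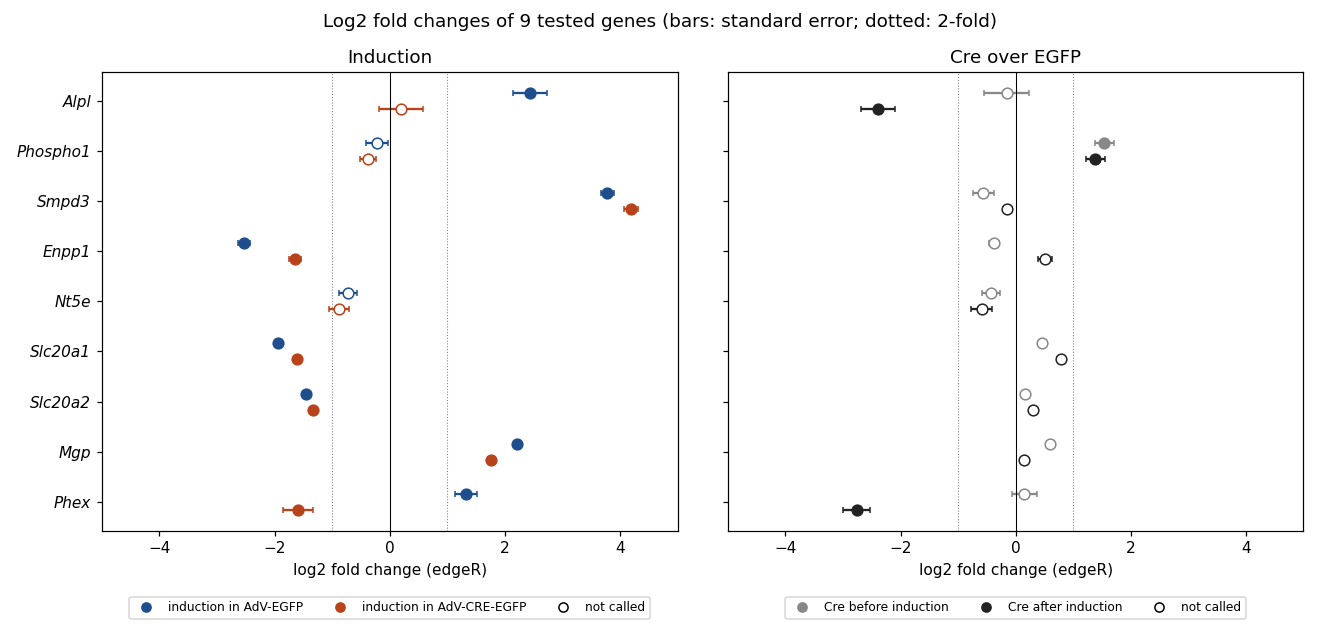
Log2 fold changes of the 9 tested genes with their standard errors, for induction within each virus (left) and for Cre over EGFP before and after induction (right), where filled points were called and dotted lines mark 2-fold. Phex lies on opposite sides of 0 in the 2 inductions (1.33 and −1.59) and Alpl is called in one of them, while Phospho1 is filled in both comparisons of the viruses; with libraries scaled to Actb, Phospho1 changed sign in both inductions, Nt5e in that of AdV-EGFP and Mgp in that of Cre after induction.

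Alpl lies on chromosome 4 of GRCm39 (chr4:137469039-137524102, minus strand). Its counts on day 0 were 59, 34 and 14 in AdV-EGFP (3.81, 2.17 and 0.865 CPM) and 42, 44 and 10 in libraries labelled AdV-CRE-EGFP (2.56, 2.90 and 0.642 CPM). After induction they were 188, 190 and 270 in OI-AdV-EGFP (11.0, 11.0 and 14.7 CPM) and 38, 36 and 42 in libraries labelled OI-AdV-CRE-EGFP (2.29, 2.22 and 2.50 CPM). The OI-AdV-EGFP libraries lay above all 9 others, and the remaining 3 groups overlapped. Alpl rose 5.40-fold with induction in AdV-EGFP, a log2 fold change of 2.43 (SE 0.30, adjusted p = 8.34e-08 from edgeR). In libraries labelled with Cre the log2 fold change was 0.20 (SE 0.38, adjusted p = 0.648 from edgeR), and it was −0.20 without AdV-CRE-EGFP replicate 3. After induction Alpl was 5.23-fold lower in libraries labelled OI-AdV-CRE-EGFP, at −2.39 on the log2 scale (SE 0.30, adjusted p = 4.77e-07 from edgeR), and before induction the log2 difference was −0.15 (SE 0.39, adjusted p = 0.809 from edgeR). The interaction was −2.23 (SE 0.50, adjusted p = 0.00166 from edgeR), and its call was lost on the log2(FPKM + 0.1) scale (adjusted p = 0.0675 from limma). In bulk RNA, fewer cells that express a gene and less RNA per cell cannot be told apart.

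Other osteoblast genes moved with Alpl between libraries, and their part in its result was not tested. Ibsp, which encodes bone sialoprotein, had 809, 529 and 7 counts in AdV-EGFP and 490, 492 and 9 in libraries labelled AdV-CRE-EGFP, so that replicate 3 was lowest in both day 0 groups for Ibsp as for Alpl. It had 4855, 1415 and 5396 counts in OI-AdV-EGFP and 71, 57 and 95 in libraries labelled OI-AdV-CRE-EGFP. Of the 7 osteoblast markers, 4 were called lower in the latter, namely Ibsp (log2 fold change −5.61), Dmp1 of osteocytes (−2.78), the transcription factor gene Sp7 (−1.96) and the osteocalcin gene Bglap (−1.47), whose reads cannot be told apart with certainty from those of Bglap2. Runx2, at −0.47, passed the adjusted p but not the fold threshold. Summed over the list, which is dominated by Col1a1, the level was 5640 to 6611 CPM in OI-AdV-EGFP and 6023 to 6082 CPM in libraries labelled OI-AdV-CRE-EGFP, and no marker of the list was at 0 in a group, though Sp7 and Dmp1 had means under 1 CPM in the latter. Without replicate 3 of both day 0 groups, Alpl had a log2 fold change of 2.02 with induction in AdV-EGFP and an interaction of −2.23.

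Phospho1 (chr11:95715264-95722973, plus strand) was called between the viruses at both times and in neither induction. It stood at 5.24, 4.86 and 5.34 CPM in AdV-EGFP and at 16.7, 13.2 and 14.8 CPM in libraries labelled AdV-CRE-EGFP. After induction it stood at 3.19, 5.24 and 4.80 CPM in OI-AdV-EGFP and at 11.1, 9.24 and 14.0 CPM in libraries labelled OI-AdV-CRE-EGFP. All 6 libraries labelled with Cre lay above all 6 others. Phospho1 was higher with Cre by 1.54 on the log2 scale before induction (SE 0.16, adjusted p = 4.88e-08 from edgeR), which is 2.91-fold, and by 1.38 after it (SE 0.17, adjusted p = 2.85e-07 from edgeR), which is 2.60-fold. The interaction was −0.16 (SE 0.24, adjusted p = 0.683 from edgeR). With induction the log2 fold change was −0.22 in AdV-EGFP (SE 0.19) and −0.38 with Cre (SE 0.14), neither called. Phospho1 shares 1825 exon bases with Zfp652 on the same strand and 1715 with Abi3 on the other, and its counts were not whole numbers, so its level is uncertain. Zfp652 itself had log2 differences between the viruses of −0.11 before and −0.22 after induction, and Abi3 had 0.47 and 0.41, none called. The level of Abi3 was 0.422 to 1.43 CPM, taken from total counts without the scaling by trimmed mean of M values.

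Smpd3 (chr8:106979176-107064670, minus strand) had the largest fold change with induction among the members in both viruses. Its level was 5.68, 5.12 and 3.15 CPM in AdV-EGFP and 3.41, 3.43 and 2.57 CPM in libraries labelled AdV-CRE-EGFP. It reached 63.5, 62.5 and 64.6 CPM in OI-AdV-EGFP and 52.9, 59.8 and 59.8 CPM in libraries labelled OI-AdV-CRE-EGFP. The groups of day 0 and day 4 lay far apart, with no overlap. The rise was 13.7-fold in AdV-EGFP (log2 fold change 3.78, SE 0.11, adjusted p = 6.18e-20 from edgeR) and 18.3-fold with Cre (log2 fold change 4.19, SE 0.12, adjusted p = 7.25e-20 from edgeR). The interaction of 0.42 missed the threshold (SE 0.20, adjusted p = 0.14 from edgeR) and passed it at 0.66 without AdV-EGFP replicate 3 (adjusted p = 0.00676 from edgeR). Between the viruses the log2 difference was −0.56 before induction, which passed the adjusted p but not the fold threshold, and −0.14 after it (SE 0.08, adjusted p = 0.146 from edgeR). Smpd3 shares 381 exon bases with Prmt7 on the opposite strand, which had log2 fold changes of −0.43 and −0.55 with induction.

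**Figure D3:**
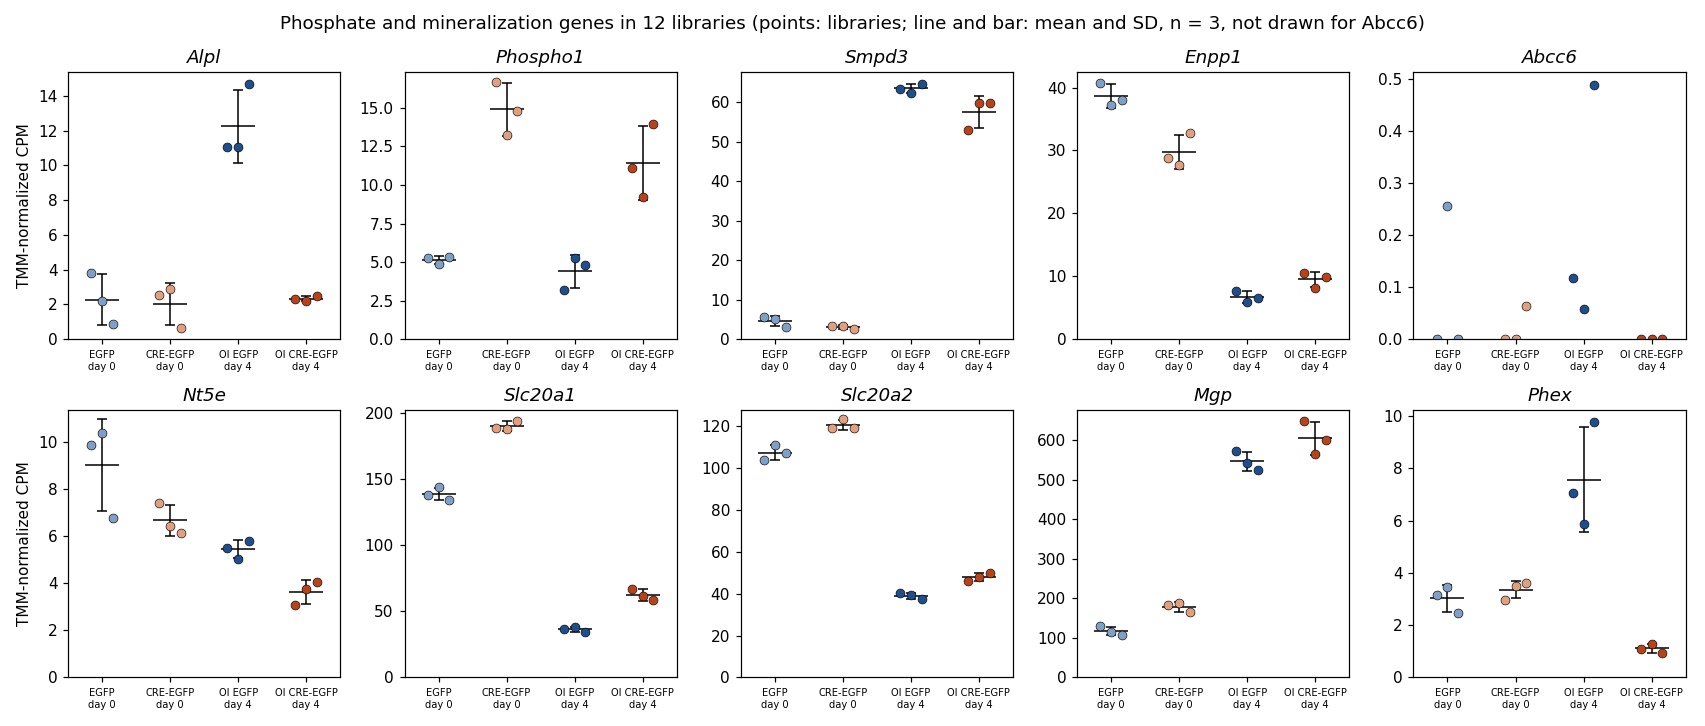
Level of each of the 10 genes (CPM scaled by trimmed mean of M values, axes from 0 and different for each gene) in the 12 libraries, with a point per library and the mean and SD of each group, which are not drawn for Abcc6. Alpl and Phex stand apart in OI-AdV-EGFP, where Alpl lay between 11.0 and 14.7 CPM, and Phospho1 is above 9 CPM in all libraries labelled with Cre.

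Enpp1 (chr10:24513812-24588057, minus strand), whose enzyme is a source of extracellular pyrophosphate, fell with induction in both viruses. It stood at 40.7, 37.2 and 38.0 CPM in AdV-EGFP and at 7.64, 5.87 and 6.58 CPM in OI-AdV-EGFP. In libraries labelled with Cre it stood at 28.8, 27.6 and 32.8 CPM on day 0 and at 10.4, 8.08 and 9.96 CPM after induction. The 4 groups did not overlap. The fall was 5.77-fold in AdV-EGFP (log2 fold change −2.53, SE 0.10, adjusted p = 5.70e-17 from edgeR) and 3.13-fold with Cre (log2 fold change −1.65, SE 0.10, adjusted p = 3.14e-13 from edgeR). The 2 falls differed by 0.88 on the log2 scale (SE 0.15, adjusted p = 0.000102 from edgeR). Between the viruses Enpp1 had log2 differences of −0.38 before and 0.51 after induction, both past the adjusted p and short of the fold threshold. Scaled to Actb, the fall with Cre was −0.94 on the log2 scale and was no longer called.

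Nt5e (chr9:88209089-88254146, plus strand) was not called in any comparison. Its level was 9.88, 10.4 and 6.79 CPM in AdV-EGFP, 7.42, 6.46 and 6.17 CPM in libraries labelled AdV-CRE-EGFP, 5.52, 5.06 and 5.82 CPM in OI-AdV-EGFP and 3.08, 3.76 and 4.05 CPM in those labelled OI-AdV-CRE-EGFP. The induced libraries lay below the day 0 libraries of the same virus. The log2 fold changes with induction, −0.72 in AdV-EGFP and −0.88 with Cre, passed the adjusted p in edgeR (0.000241 and 9.31e-05) but not the fold threshold, as did those between the viruses before (−0.43) and after induction (−0.59). Scaled to Actb, the value for induction in AdV-EGFP turned to 0.16.

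Abcc6 (chr7:45616979-45679859, minus strand), best known from liver and kidney, was close to the limit of detection and was not tested. It had 0, 4 and 0 counts in AdV-EGFP, 0, 0 and 1 in libraries labelled AdV-CRE-EGFP, 2, 1 and 9 in OI-AdV-EGFP and 0, 0 and 0 in those labelled OI-AdV-CRE-EGFP. The highest value, 0.489 CPM, came from OI-AdV-EGFP replicate 3. A count of 0 allows up to 3 counts, or 0.163 to 0.198 CPM in these libraries, for counting error only.

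The ratio of Alpl to Enpp1, 1 enzyme that destroys pyrophosphate over 1 that makes it, was taken within each library from FPKM and is a description without a test. Its log2 value was −2.66, −3.31 and −4.75 in AdV-EGFP and −2.86, −2.58 and −4.93 in libraries labelled AdV-CRE-EGFP. After induction it was 1.25, 1.46 and 1.81 in OI-AdV-EGFP and −1.29, −0.87 and −1.40 in libraries labelled OI-AdV-CRE-EGFP. Alpl thus exceeded Enpp1 per length in the 3 OI-AdV-EGFP libraries and lay below it in the other 9, and the induced libraries with Cre lay between the day 0 and the OI-AdV-EGFP libraries. Replicate 3 was lowest in both day 0 groups, as it was for Alpl itself. Because the deposited FPKM was not always in a fixed proportion to counts, the ratios are approximate. The log2 ratio of Phospho1 to Alpl averaged 2.42 ± 1.04 (SD, n = 3) in AdV-EGFP, 4.22 ± 1.22 in libraries labelled AdV-CRE-EGFP, −0.36 ± 0.48 in OI-AdV-EGFP and 3.16 ± 0.40 in those labelled OI-AdV-CRE-EGFP.

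**Figure D4:**
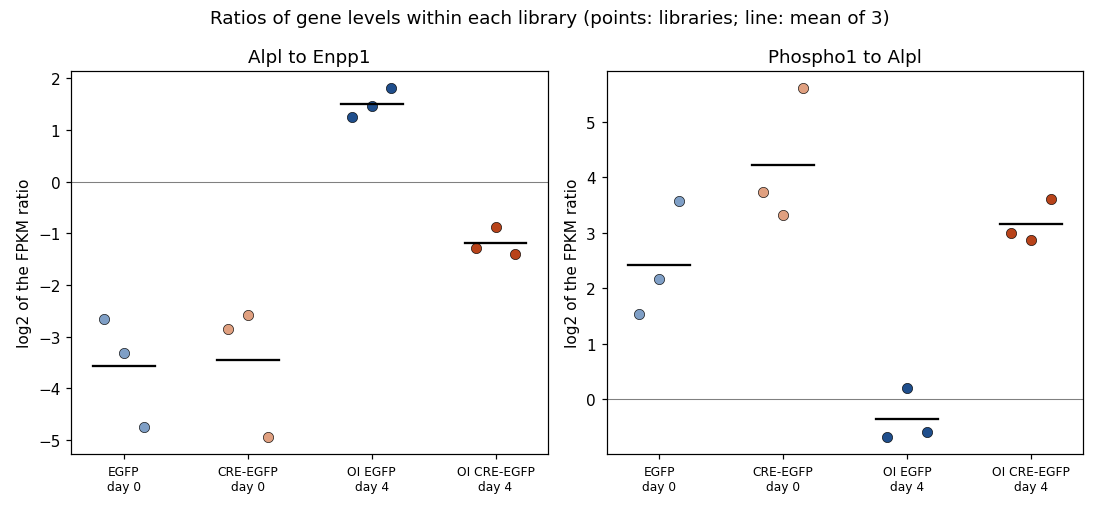
Log2 ratios of FPKM within each library for Alpl to Enpp1 (left) and Phospho1 to Alpl (right), with a point per library and a line at the mean of 3. Alpl to Enpp1 is above 0 in the 3 OI-AdV-EGFP libraries (1.25 to 1.81) and below 0 in all others.

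Both phosphate carriers fell with induction. Slc20a1 (chr2:129040256-129053536, plus strand) stood at 138, 144 and 135 CPM in AdV-EGFP and at 36.8, 38.1 and 34.2 CPM in OI-AdV-EGFP. In libraries labelled with Cre it stood at 189, 188 and 194 CPM on day 0 and at 66.9, 62.0 and 58.5 CPM after induction. No groups overlapped, and at each time libraries labelled with Cre were the higher. The fall was 3.82-fold in AdV-EGFP (log2 fold change −1.93, SE 0.05, adjusted p = 2.61e-20 from edgeR) and 3.05-fold with Cre (log2 fold change −1.61, SE 0.05, adjusted p = 4.99e-19 from edgeR). The interaction was 0.33 (SE 0.07, adjusted p = 0.00213 from edgeR), and scaled to Actb it was 0.15 (adjusted p = 0.178 from edgeR). Between the viruses the log2 differences of 0.45 before and 0.78 after induction passed the adjusted p but not the fold threshold.

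Slc20a2 (chr8:22966111-23059686, plus strand) stood at 104, 111 and 107 CPM in AdV-EGFP and at 40.2, 39.4 and 37.5 CPM in OI-AdV-EGFP. In libraries labelled with Cre it stood at 119, 123 and 119 CPM on day 0 and at 46.0, 48.0 and 49.8 CPM after induction. The order of the groups was that of Slc20a1, again without overlap. It fell 2.75-fold in AdV-EGFP (log2 fold change −1.46, SE 0.05, adjusted p = 2.06e-18 from edgeR) and 2.51-fold with Cre (log2 fold change −1.33, SE 0.05, adjusted p = 1.41e-17 from edgeR), with an interaction of 0.13 that missed the threshold (SE 0.07, adjusted p = 0.211 from edgeR). The differences between the viruses were 0.17 before and 0.30 after induction on the log2 scale, below the fold threshold. Scaled to Actb, which moved the median log2 fold change of all genes by 0.88 in AdV-EGFP and 0.71 with Cre, Slc20a2 had −0.58 and −0.62 with induction and was called in neither, and Slc20a1 had −0.90 with Cre and was not called. Smim19 shares 849 exon bases with Slc20a2 on the opposite strand. Its level was 6.64 to 12.8 CPM, taken from total counts without the scaling by trimmed mean of M values.

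Mgp (chr6:136849433-136852821, minus strand), the inhibitor, rose with induction from a high level. It stood at 129, 116 and 108 CPM in AdV-EGFP and at 573, 541 and 525 CPM in OI-AdV-EGFP. In libraries labelled with Cre it stood at 182, 187 and 165 CPM on day 0 and at 648, 565 and 600.3 CPM after induction. The 2 day 0 groups were apart, with Cre the higher, and the 2 induced groups overlapped. The rise was 4.65-fold in AdV-EGFP (log2 fold change 2.22, SE 0.06, adjusted p = 1.19e-20 from edgeR) and 3.39-fold with Cre (log2 fold change 1.76, SE 0.06, adjusted p = 1.03e-18 from edgeR), and the difference between them was −0.45 (SE 0.08, adjusted p = 0.000195 from edgeR). Between the viruses the log2 difference was 0.60 before induction and 0.15 after it, under the fold threshold in both, and the latter was −0.065 when scaled to Actb.

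Phex (chrX:155945071-156198308, minus strand) was the one member called in opposite directions in the 2 inductions. Its counts were 49, 54 and 40 in AdV-EGFP (3.16, 3.45 and 2.47 CPM) and 49, 53 and 56 in libraries labelled AdV-CRE-EGFP (2.98, 3.49 and 3.60 CPM). They were 120, 101 and 180 in OI-AdV-EGFP (7.05, 5.87 and 9.79 CPM) and 18, 21 and 16 in libraries labelled OI-AdV-CRE-EGFP (1.09, 1.29 and 0.954 CPM). The day 0 groups overlapped, all OI-AdV-EGFP libraries lay above them, and all induced libraries labelled with Cre lay below. Phex rose 2.51-fold in AdV-EGFP (log2 fold change 1.33, SE 0.20, adjusted p = 1.63e-06 from edgeR) and fell 3.01-fold with Cre (log2 fold change −1.59, SE 0.26, adjusted p = 7.96e-06 from edgeR). The interaction was −2.91 (SE 0.33, adjusted p = 2.84e-07 from edgeR), and after induction Phex was 6.79-fold lower in libraries labelled with Cre (log2 fold change −2.76, SE 0.23, adjusted p = 6.89e-10 from edgeR). Before induction the difference was 0.15 (SE 0.22, adjusted p = 0.661 from edgeR). On the log2(FPKM + 1) scale, which compresses low genes, both changes with induction kept their direction at 0.57 and −0.53 and neither was called, and scaled to Actb the fall with Cre was −0.88 and not called. Dmp1 of the osteoblast list had 69, 37 and 207 counts in OI-AdV-EGFP, so that replicate 3 was highest and replicate 2 lowest there for Dmp1, Ibsp and Phex, and the part of these markers in the Phex result was not tested.

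Among 56 further genes of the same pathways, 42 were tested. With induction in AdV-EGFP 7 rose and 5 fell, beside 15.1% and 10.8% of all tested genes, and in libraries labelled with Cre 5 rose and 5 fell, beside 12% and 8.62%. Between the viruses 1 was higher and 2 were lower after induction, beside 2.46% and 2.61%, and 3 were higher before it, beside 2.6%. In the interaction, 8 were higher and 10 lower, beside 10.7% and 12.1%. Nothing particular to these genes is read from the counts. The median log2 fold change of the 42 was 0.16 with induction in AdV-EGFP and 0.030 with Cre, and 0.056 after and −0.076 before induction between the viruses, where the medians of all tested genes were 0.047, 0.017, −0.010 and −0.0053. Of 10 tested genes for extracellular ATP, pyrophosphate and adenosine, Entpd2, an ecto-ATPase, rose in both viruses, with log2 fold changes of 4.38 and 3.62. Ank, the mouse Ankh gene, which encodes an exporter needed for extracellular pyrophosphate, fell in both, from 149, 160 and 155 CPM to 48.5, 48.0 and 49.4 CPM in AdV-EGFP. Its log2 fold changes were −1.67 in AdV-EGFP and −1.36 with Cre, so Ank and Enpp1 fell together. Enpp3 (−1.02), the adenosine receptor gene Adora2b (−1.30) and the nucleoside transporter gene Slc29a2 (−1.11) fell in AdV-EGFP, and Ada, adenosine deaminase, rose by 1.04 with Cre. Entpd1 (CD39) rose by 1.19 in AdV-EGFP and was higher with Cre by 1.99 before induction.

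No gene of the 5 tested phosphatase relatives was called in the inductions or between the viruses. Of 12 tested sphingolipid, choline and matrix vesicle genes, only Enpp2 (autotaxin) was called in those comparisons. It rose by 3.11 on the log2 scale with induction in AdV-EGFP and by 1.34 with Cre, and before induction it was higher with Cre by 1.59. Of 5 tested phosphate transport and hormone genes, Fam20a, a pseudokinase of the secretory pathway, fell in both inductions (−1.58 and −1.30), and Galnt3, whose enzyme protects FGF23 from cleavage, was higher with Cre after induction (1.14). Among 6 tested relatives of Phex and acidic peptide proteins, the neprilysin gene Mme rose by 1.36 and Ibsp by 2.95 in AdV-EGFP. With Cre, Ecel1, Dmp1 and Ibsp fell (−1.04, −2.39 and −2.22). For Ibsp the libraries with Cre overlapped, at 0.578 to 32.4 CPM on day 0 and 3.51 to 5.66 CPM after induction. Before induction Ecel1 was higher with Cre (2.69). Of 4 tested genes of circulating inhibitors and the vitamin K cycle, on which MGP depends, Vkorc1 rose by 1.62 in AdV-EGFP and 1.58 with Cre, and Fetub by 1.01 and 1.78.

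Marker lists of other cell types moved with the groups, and their part in the results above was not tested. The 8 mural and smooth muscle markers summed to 5791 to 5941 CPM in AdV-EGFP, 7206 to 7477 CPM in libraries labelled AdV-CRE-EGFP, 1862 to 1950 CPM in OI-AdV-EGFP and 2637 to 2774 CPM in those labelled OI-AdV-CRE-EGFP. Most of this sum was Acta2, with group means of 4114 CPM in AdV-EGFP and 1320 CPM in OI-AdV-EGFP, while Rgs5 rose there from 3.25 to 11.2 CPM, and of the 8 genes 1 rose and 3 fell with induction in each virus. The 7 adipocyte markers summed to 63.7 to 65.8, 142 to 149, 289 to 308 and 786 to 827 CPM in the same order of groups, with Plin1 under 1 CPM in every group. The 8 macrophage and osteoclast markers summed to 397 to 417, 813 to 882, 845 to 871 and 1317 to 1368 CPM, with Mmp9 under 1 CPM. Ctsk, at group means of 157 and 562 CPM on day 0 and 392 and 848 CPM after induction (AdV-EGFP and Cre), made most of the difference between the viruses, and it was the 1 gene of 7 tested that was called in each comparison of the viruses. The 8 chondrocyte markers summed to 63.9 to 71.1, 74.7 to 79.1, 135 to 147 and 91.4 to 95.8 CPM. The rise of this sum with induction in AdV-EGFP came mostly from Comp (2.13 to 46.5 CPM), Hapln1 (11.4 to 33.3 CPM) and Sox9 (38.1 to 53.1 CPM). Acan fell from 5.50 to 1.07 CPM, Col2a1 from 8.95 to 5.82 CPM and Col10a1 from 1.22 to 0.287 CPM. Of the 6 tested markers, 2 were called higher and 2 lower, with a median log2 fold change of −0.072. The 5 endothelial markers summed to 3.58 to 5.49, 16.5 to 23.2, 16.4 to 19.9 and 32.8 to 35.4 CPM, with Pecam1 and Emcn under 1 CPM, and of the 4 epithelial markers Epcam, Krt5 and Krt14 were under 1 CPM. Markers at 0 in all libraries of a group were Matn1 in both day 0 groups and Krt14 in AdV-CRE-EGFP and OI-AdV-EGFP.

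For each of the 6 members called between the viruses or in the interaction, the genes of most similar pattern were taken by Pearson correlation of log2 CPM over the 12 libraries among 9225 genes of at least 10 CPM. The 12 points form 4 groups of 3, so r is high for any gene that follows the groups, and it is given as a description. The leading 3 genes were Rsf1, Parn and Irak4 for Alpl (r from 0.940 to 0.968), Sec23b, Shc2 and Htra1 for Phospho1 (0.961 to 0.981), and Plekhh2, Tmtc4 and Fmod for Phex (0.946 to 0.962). They were Ndc1, Sulf1 and Mthfd2 for Enpp1 (0.994 to 0.996), Bhlhe40, Cct6a and Rad23b for Slc20a1 (0.996 to 0.999), and Cyb5a, Rit1 and Plac9 for Mgp (0.995 to 0.9965). In the annotation of the deposited table, Alpl, Abcc6 and Phex shared the term response to sodium phosphate, which 4 genes of the table carry. Alpl, Phospho1 and Phex shared bone mineralization, which 27 carry. The members were chosen by name for such roles, so shared terms only describe the choice.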

How the data were processed

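RNA of 12 libraries, 3 in each of 4 groups read from the labels, was analysed. Libraries made with the NEBNext Ultra II kit were read on a NovaSeq, and the authors used Cutadapt, HISAT2 with GRCm39 and HTSeq. The deposited table holds estimated counts, left unscaled by the authors, and FPKM values, which the authors normalized by transcript length and mapped fragments. Between 1646 and 1844 genes per library held counts that were not whole, the reason for which is not stated. The annotation release and strand setting were not given in the sources used here, so overlapping genes are uncertain. Counts were rounded and fitted with edgeR 4.0.16 in R 4.3.3 (quasi-likelihood F test, trimmed mean of M values, filterByExpr) as 4 group means over 12 libraries. This left 13670 genes, over which p-values were adjusted by Benjamini-Hochberg. The common biological coefficient of variation was 0.0472. It does not set the precision of single genes, for which the SE is given: Alpl varied more, at 2.28 ± 1.48 CPM (SD, n = 3) in AdV-EGFP.

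Members and lists were chosen with earlier results of these data known. Named genes were all members, called genes of the pathway lists, osteoblast markers and the most similar genes by correlation. Gene positions come from GRCm39 and promoter windows from RefSeq on GRCm38.p6. No protein sequences were used here. The script was tested on simulated data. Chi-square per gene between libraries of a group was 2.16 to 5.07, so none was counted as a duplicate. Alternatives were DESeq2 1.42.0, other scalings (DESeq2-type size factors, Actb counts), no filter, only the groups compared, a replicate block, limma 3.58.1 on log2 FPKM with pseudocounts of 1 and 0.1, and leaving out each library. Over all tested genes, same-numbered libraries did not deviate together: the correlation was over 0.1 in 0 of 18 pairs (−0.07 to 0.05). This does not show whether they share a culture.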

Additional observations from a re-analysis of the deposited data

Results flagged for a closer look

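Of the 9 tested genes, 5 changed with induction by different amounts in the libraries labelled AdV-CRE-EGFP and in AdV-EGFP, by the interaction term in edgeR. On the log2 scale the difference was −2.23 for Alpl (adjusted p = 0.00166), with 3 of 3 OI-AdV-EGFP libraries above all others, and −2.91 for Phex (adjusted p = 2.84e-07), with changes in opposite directions, from edgeR. For Enpp1 the fall was smaller with Cre (0.88, adjusted p = 0.000102 from edgeR), as it was for Slc20a1 (0.33, adjusted p = 0.00213 from edgeR). The rise of Mgp was smaller with Cre (−0.45, adjusted p = 0.000195 from edgeR). The interaction passed for 22.8% of all tested genes.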

How the results depend on the processing

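Over all alternatives, the log2 fold changes of single members kept direction and side of the threshold in 912 values, reversed in 12, lost the threshold in 9 and gained it in 3. The count of called members moved by over 1.5 times in 1 setting, scaling to Actb, where 2 rather than 6 members were called with induction in the libraries labelled AdV-CRE-EGFP. With no filter on low counts, 4 members rather than 3 were called between the viruses after induction, the fourth being Abcc6 (adjusted p = 0.0192 in edgeR) on 12 counts or fewer a group.

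Scaled to Actb, the values that changed sign were Phospho1 and Nt5e with induction in AdV-EGFP (0.66 and 0.16), Phospho1 with induction with Cre (0.33), Mgp between the viruses after induction (−0.065) and Slc20a2 in the interaction (−0.044, and −0.0013 on log2(FPKM + 1)). Without AdV-CRE-EGFP replicate 3, Alpl had −0.20 with induction with Cre and 0.24 between the viruses before induction, and without AdV-EGFP replicate 1 the latter was 0.41. Without AdV-EGFP replicate 3 the interaction of Nt5e was 0.037. Without replicate 3 of both day 0 groups, Alpl had −0.21 with induction with Cre and Phex −0.053 between the viruses before induction. With 1 library left out at a time, Alpl ran from −0.20 to 0.53 with induction with Cre and from −0.57 to 0.41 between the viruses before induction, Phex from 0.0014 to 0.23 in the latter, and Nt5e from −0.25 to 0.037 in the interaction. None of these was called in the fit reported. The cause was not tested.

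Counts over all genes on log2(FPKM + 1) were 2020 and 1447 for induction in AdV-EGFP and with Cre and 241 and 123 between the viruses after and before it, against 3541, 2825, 693 and 432. Scaled to Actb, 6768 and 5036 genes were called in the inductions, 6258 and 4600 of them higher, against 2063 and 1646 higher in the fit reported. In the interaction 571 were higher and 3765 lower with that scaling, against 1467 and 1648, and between the viruses after induction 250 and 612 against 336 and 357.

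With a replicate block the called members numbered 7 and 6 with induction, 3 and 1 between the viruses and 5 in the interaction, as without it. Whether same-numbered libraries share more than a number is not in the labels. Leaving out 1 library at a time gave 7, 6, 3 and 1 in every case and 5 to 6 in the interaction. Depth limits Abcc6.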
